A study of Danio rerio with 12 samples.

Results

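The genes described here are ca2, which encodes a cytosolic carbonic anhydrase, and the water channel genes aqp3a and aqp1a.1, in the zebrafish heart ventricle after amputation of its tip, with and without the dioxin TCDD. They were chosen by gene symbol: every probe set that the platform annotation gives to 1 of these 3 symbols was taken. This gave 4 probe sets, 2 for ca2 (gene ID 387526) and 1 each for aqp3a (406777) and aqp1a.1 (335821), of 15502 probe sets and 8793 named genes on the array. The 3 genes were picked because of their levels on these same arrays, so their levels and differences are given as a description, with errors and without tests. Tests are given only for other genes, whose lists were also made with earlier results of these data known. Counts of calls in a list therefore describe these arrays and are no independent evidence.

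Carbonic anhydrases interconvert carbon dioxide and water with bicarbonate and a proton, and so couple gas transport and pH control to the transporters that move bicarbonate and acid across membranes. Ca2 is the fast cytosolic form. In zebrafish skin it is known from acid-secreting ionocytes, the cells that exchange ions with the water. Aquaporins are channels that let water cross membranes. Aqp3 proteins also pass glycerol, and in mammals AQP3 is abundant in the basal keratinocytes of skin. Aqp1a.1 is a water channel known in zebrafish from red blood cells and from endothelium, the lining of vessels.

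All fish were adults of the AB strain. The groups were TCDD and control fish, each unamputated (0 hpa, hours post amputation), at 6 hours (6 hpa) and at 7 days (7 dpa) after removal of the ventricle tip, with 2 arrays in each of the 6 groups. TCDD, a ligand of the aryl hydrocarbon receptor, was injected into the body cavity at 70 ng/g 1 day before surgery. No group was left unamputated to 6 hours or 7 days. Differences from 0 hpa therefore combine amputation with time since injection, and these cannot be told apart. The protocol gives the controls a vehicle injection, while the sample labels list their treatment as none. Each array was hybridised with RNA of the lower ventricle piece, which after surgery contains the amputation plane and the regenerate, pooled from 10 hearts. Errors therefore measure the spread between pools and not between fish. The labels do not say whether the pools of a group came from separate experiments. The standard error of a difference uses a spread estimated over all 6 groups, and not that of the compared groups alone.

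The median log2 intensity of an array lay between 3.26 and 3.53. No detection call came with these values, so that signals near the median cannot be told from background. TCDD 6 hpa replicate 1 stood apart: it correlated with its replicate at r = 0.901, against 0.958 to 0.979 within the other groups, and its 99th percentile of log2 intensity was 9.88, against 10.41 to 10.64 on the other arrays. As a check of the treatment labels, cyp1a, the classic induced target of the aryl hydrocarbon receptor, lay between 9.38 and 12.18 on the 6 TCDD arrays and between 2.71 and 3.64 on the 6 control arrays. Of 18 cardiomyocyte marker genes, 14 to 17 exceeded a log2 intensity of 5 on every array. Their summed intensity was lower on all 8 amputated arrays (27623 to 41968) than on the 4 unamputated ones (48030 to 51826).

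Ca2 was at the level of the dimmest signals in unamputated ventricles. It lay well above the array median only at 7 dpa, and was bright only after TCDD. At 7 dpa its main probe set, the one with the higher mean, gave log2 intensities of 9.19 and 8.65 on the TCDD arrays, against 4.65 and 4.91 on the control arrays. These are 585 and 401 intensity units after TCDD, against 25.2 and 30.0 in controls. The groups did not overlap, and the difference of the means was 4.14 ± 0.22 log2 units, or 17.6-fold (standard error of the 12-array model, n = 2 per group).

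Earlier, ca2 stayed below or near the array median. At 0 hpa it lay at 2.59 and 2.69 in TCDD ventricles and at 2.75 and 2.64 in control ventricles. At 6 hpa it lay at 2.81 and 3.12 in TCDD ventricles and at 3.24 and 3.01 in control ventricles. TCDD and control arrays overlapped at both times, with differences of −0.05 ± 0.22 at 0 hpa and −0.16 ± 0.22 at 6 hpa.

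Against the unamputated ventricle of the same treatment, ca2 at 7 dpa was higher by 6.28 ± 0.22 log2 units in TCDD fish (77.7-fold) and by 2.09 ± 0.22 in control fish (4.25-fold). At 6 hpa the same differences were 0.32 ± 0.22 in TCDD fish and 0.43 ± 0.22 in control fish. The TCDD difference at 7 dpa thus exceeded the control difference by 4.19 ± 0.31 log2 units. The ca2 group means, from high to low, ran from TCDD 7 dpa (8.92 ± 0.39, SD) and control 7 dpa (4.78 ± 0.18) to control 6 hpa (3.12 ± 0.17), TCDD 6 hpa (2.96 ± 0.22), control 0 hpa (2.69 ± 0.08) and TCDD 0 hpa (2.64 ± 0.08). Neighbours in this order overlapped between the 2 groups at 6 hpa and between the 2 groups at 0 hpa.

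Because ca2 started in the range of background, the size of its folds depends on the scale. On the log2(value + 16) scale, which compresses dim values, the TCDD minus control difference at 7 dpa was 3.52. The difference of 7 dpa from 0 hpa on that scale was 4.49 in TCDD fish and 0.95 in control fish.

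**Figure D1:**
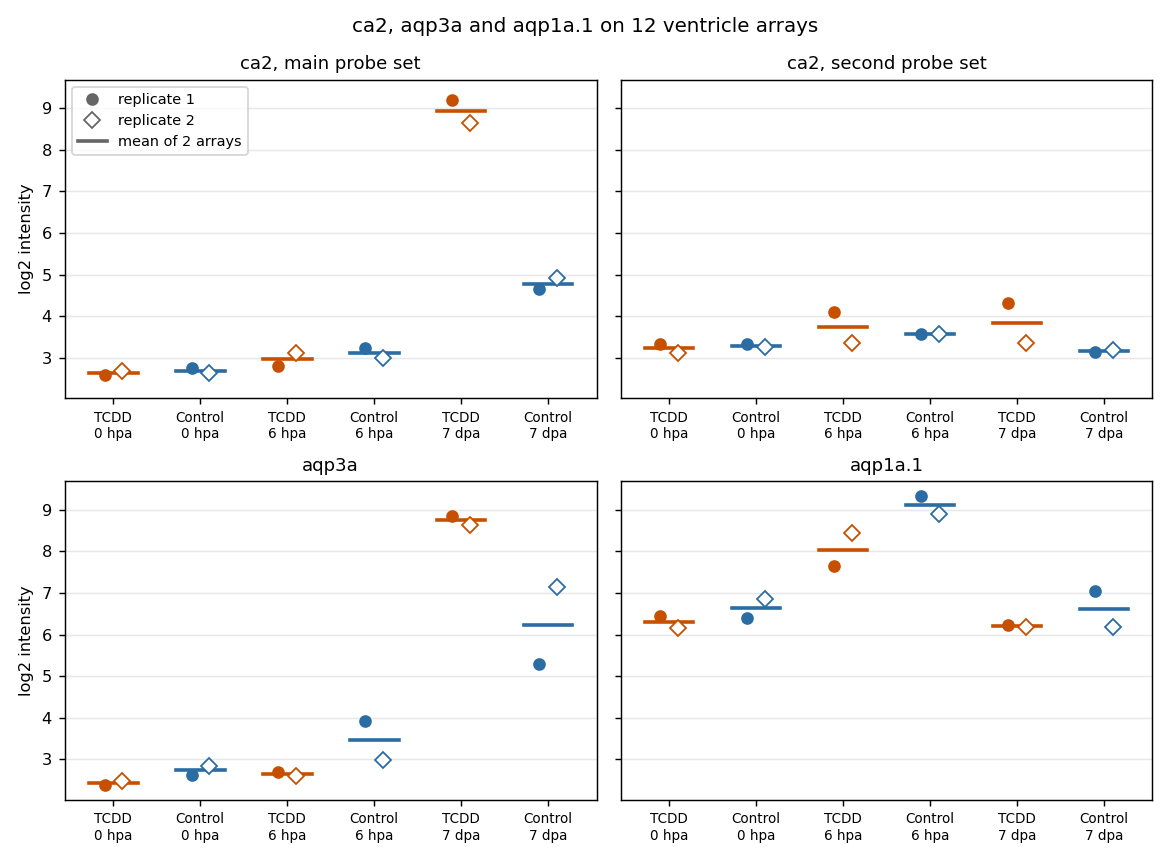
Log2 intensity (vertical axis) of the 4 probe sets on each array, by group, with TCDD in orange and control in blue; filled circles are replicate 1, open diamonds replicate 2 and bars the mean of the 2 arrays. The main ca2 probe set and aqp3a are high on both TCDD arrays at 7 dpa, and aqp1a.1 is high on the 4 arrays at 6 hpa.

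The second ca2 probe set did not show this pattern. It stayed between 3.12 and 4.32 on all 12 arrays, while the main one spanned 6.61 log2 units. At 7 dpa it lay at 4.32 and 3.35 on the TCDD arrays, against 3.13 and 3.19 on the control arrays, so that its higher values rested on 1 array. The difference was 0.68 ± 0.32 log2 units. At 6 hpa it lay at 4.10 and 3.36 in TCDD ventricles and at 3.57 and 3.58 in control ventricles. The mean of both ca2 probe sets was higher in TCDD than in control fish at 7 dpa by 2.41 log2 units. Which part of the transcript each probe set reads was not analysed here.

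Aqp3a, the aquaglyceroporin gene, was likewise near background in unamputated ventricles and high at 7 dpa, and here the control ventricles took part. At 7 dpa it lay at 8.86 and 8.63 on the TCDD arrays, against 5.30 and 7.16 on the control arrays. In intensity units these were 464 and 396 after TCDD, against 39.5 and 143 in controls. Both TCDD arrays were above both control arrays, but the control pools differed from each other by 1.85 log2 units.

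The TCDD minus control difference of aqp3a at 7 dpa was 2.51 ± 0.52 log2 units, or 5.71-fold. Its error is shared over all 6 groups, while the SD at 7 dpa was 0.16 in TCDD and 1.31 in control ventricles. The difference was 1.59 without control 7 dpa replicate 1 and 3.44 without control 7 dpa replicate 2. Against 0 hpa, where aqp3a lay below the array median and could not be told from background, its measured level at 7 dpa was higher by 6.31 ± 0.52 in TCDD fish (79.5-fold) and by 3.49 ± 0.52 in control fish (11.3-fold). The control value was 4.42 without control 7 dpa replicate 1 and 2.57 without replicate 2. The TCDD difference at 7 dpa exceeded the control difference by 2.82 ± 0.73 log2 units, a value that rests on both baselines. As for ca2, these folds depend on the scale. On the log2(value + 16) scale the differences from 0 hpa were 4.38 in TCDD fish and 2.05 in control fish.

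At 0 hpa aqp3a lay at 2.38 and 2.48 in TCDD ventricles, just under the 2.64 and 2.84 of control ventricles (−0.31 ± 0.52). At 6 hpa it lay at 2.70 and 2.61 in TCDD ventricles, against 3.92 and 3.00 in control ventricles (−0.80 ± 0.52). All of these but control 6 hpa replicate 1, the highest, lay below their array's median. The 6 hpa minus 0 hpa difference was 0.23 ± 0.52 in TCDD fish and 0.72 ± 0.52 in control fish. From high to low the group means were 8.74 ± 0.16 (SD) in TCDD 7 dpa, 6.23 ± 1.31 in control 7 dpa, 3.46 ± 0.66 in control 6 hpa, 2.74 ± 0.14 in control 0 hpa, 2.66 ± 0.06 in TCDD 6 hpa and 2.43 ± 0.07 in TCDD 0 hpa. Of neighbours in this order, the arrays of control 0 hpa and TCDD 6 hpa overlapped.

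Ca2 and aqp3a ran together over the arrays, with Pearson's r = 0.955 and Spearman's rho = 0.881 over 12 arrays. Without the 2 TCDD 7 dpa arrays r was 0.958, and over the 8 arrays at 0 and 6 hpa, where both genes were near background, it was 0.727. The arrays of a time point share their surgery and time, so these values only describe the match. Within the control 7 dpa group both genes were higher in replicate 2, ca2 by 0.25 log2 units and aqp3a by 1.85.

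Aqp1a.1 followed another course. It was well above the array median on every array, and its peak was at 6 hpa and higher in controls than after TCDD. At 6 hpa it lay at 7.64 and 8.44 on the TCDD arrays, against 9.33 and 8.90 on the control arrays. In intensity units these were 200.0 and 346 after TCDD, against 645 and 479 in controls. Both TCDD arrays were below both control arrays, and the difference was −1.08 ± 0.35 log2 units, or 2.11-fold lower after TCDD. The lower TCDD value belongs to replicate 1, the array that stood apart. Without it the difference was −0.68, and without TCDD 6 hpa replicate 2 it was −1.47. With quantile normalization it was −0.66.

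Against the unamputated ventricle, aqp1a.1 at 6 hpa was higher by 1.74 ± 0.35 log2 units in TCDD fish (3.34-fold) and by 2.49 ± 0.35 in control fish (5.61-fold). The TCDD difference was smaller than the control difference by an amount close to its error (−0.75 ± 0.49). Both 6 hpa arrays were above both 0 hpa arrays in each treatment. The 0 hpa values were 6.44 and 6.16 in TCDD ventricles and 6.40 and 6.86 in control ventricles, and TCDD and control arrays overlapped (−0.33 ± 0.35).

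By 7 dpa aqp1a.1 was close to its unamputated level. It lay at 6.23 and 6.17 in TCDD ventricles, against 7.05 and 6.19 in control ventricles. It differed from 0 hpa by −0.10 ± 0.35 in TCDD fish and by −0.01 ± 0.35 in control fish. TCDD and control arrays overlapped at 7 dpa (−0.42 ± 0.35), and the difference was 0.01 without control 7 dpa replicate 1. The group means ran from control 6 hpa (9.12 ± 0.30, SD) and TCDD 6 hpa (8.04 ± 0.56) to control 0 hpa (6.63 ± 0.33), control 7 dpa (6.62 ± 0.61), TCDD 0 hpa (6.30 ± 0.20) and TCDD 7 dpa (6.201 ± 0.04). Each of the last 4 groups overlapped with its neighbour. Over the 12 arrays aqp1a.1 had a Pearson's r of −0.40 with both ca2 and aqp3a. Over the 8 arrays at 0 and 6 hpa r was 0.92 with ca2 and 0.75 with aqp3a, which at those times lay near background.

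**Figure D2:**
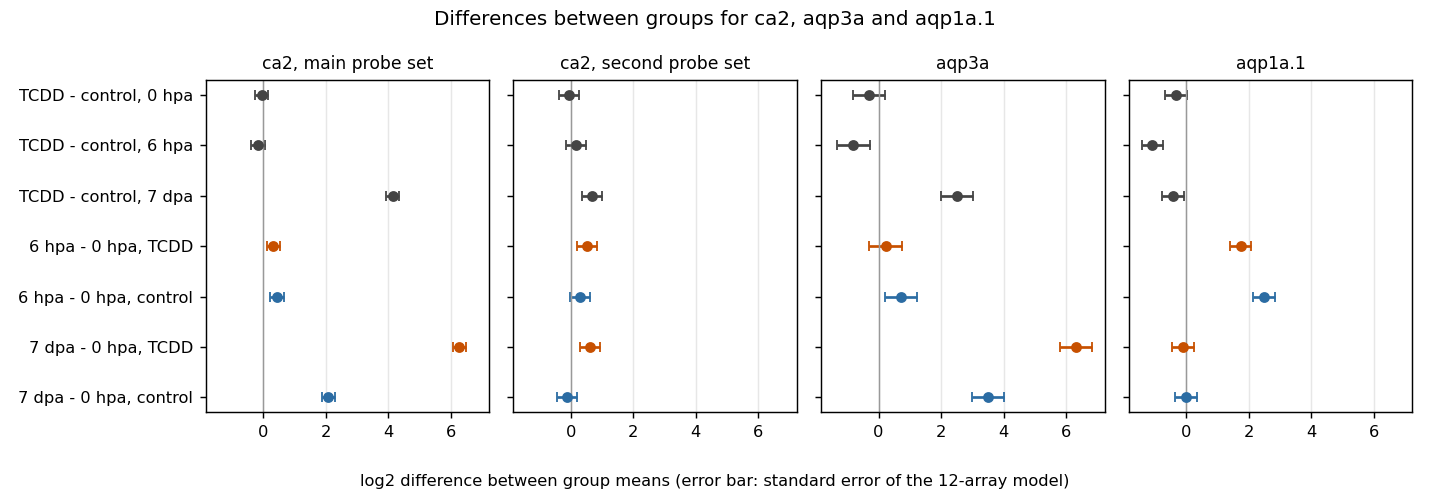
Log2 difference between group means (horizontal axis) for each probe set in 7 comparisons (vertical axis); points are the differences, bars the standard error, with TCDD minus control in grey, TCDD fish over time in orange and control fish over time in blue. The main ca2 probe set and aqp3a lie far to the right of 0 at 7 dpa, and aqp1a.1 lies to the right of 0 at 6 hpa in both treatments.

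The separation of the 2 arrays of one group from the 2 of another was common on these arrays. At 7 dpa 3 of the 4 probe sets were higher on both TCDD arrays than on both control arrays, where 13.3% of all probe sets were. At 6 hpa 2 of 4, aqp3a and aqp1a.1, were lower on both TCDD arrays, where 9.19% of all were. At 0 hpa aqp3a alone was lower on both TCDD arrays, where 14.7% of all were. Comparing 7 dpa with 0 hpa, 3 of 4 were higher in TCDD fish, against 20.9% of all, and 2 of 4 were higher in control fish, against 18.2% of all. The second ca2 probe set was lower at 7 dpa than at 0 hpa in control fish, as were 22.4% of all. At 6 hpa all 4 were higher than at 0 hpa in either treatment, where 25.4% of all probe sets were in TCDD fish and 22% in control fish. The genes were chosen on these contrasts, so nothing is read from the counts.

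With all 12 arrays, no other carbonic anhydrase or aquaporin gene passed the test of a difference. When single arrays were left out, this changed in TCDD fish at 6 hpa for cahz without either control 7 dpa array. It also changed for cahz, ca5a and the dim aqp12 without TCDD 6 hpa replicate 2. That omission leaves only the array that stood apart in its group, and calls then rose over all probe sets. Of 21 other carbonic anhydrase genes listed 7 had a probe set, and of 17 other aquaporin genes 3 had one, together 13 probe sets. None was called in any of the 9 comparisons (limma with Benjamini-Hochberg adjustment over 15502 probe sets, called at an adjusted p below 0.05). These were TCDD against control at 3 times, and 6 hpa and 7 dpa against 0 hpa in each treatment. The others were the interactions of TCDD with the change from 0 hpa to 6 hpa and to 7 dpa. Of all probe sets, the test called 0.0258% between TCDD and control at 0 hpa, 0.0129% at 6 hpa and 0.116% at 7 dpa. It called 1.88% at 6 hpa and 2.37% at 7 dpa in TCDD fish against 0 hpa, 0.477% and 2% in control fish, and 0.00645% in either interaction. At an unadjusted p under 0.05 the 9 carbonic anhydrase probe sets gave between 0 and 2 in a comparison, and the 4 aquaporin probe sets likewise. Over all 15502 probe sets between 176 and 2659 had such a p in a comparison.

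Most of these genes were dim. Of the carbonic anhydrases, ca4a (a membrane-anchored form), ca7 (cytosolic), ca9 (a membrane form induced by low oxygen in mammals) and the carbonic anhydrase-related genes ca8 and ca10a did not exceed a log2 intensity of 3.57 on any array. Aqp9b, an aquaglyceroporin gene, and aqp12 did not exceed 3.83. The genes that were clearly above the array median on every array were cahz and aqp8a.1. Ca5a was so too, except on TCDD 6 hpa replicate 1, where it lay at 3.71 against a median of 3.53.

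Cahz, the carbonic anhydrase of zebrafish red cells, was high at 6 hpa, when aqp1a.1 was. It lay at 10.57 and 9.51 in TCDD ventricles at 6 hpa, against 7.39 and 7.68 in TCDD ventricles at 0 hpa, a difference of 2.505 ± 0.61 log2 units (limma adjusted p = 0.0784). In control ventricles it lay at 10.88 and 9.58 at 6 hpa, against 8.68 and 8.63 at 0 hpa, a difference of 1.57 ± 0.61 (limma adjusted p = 0.398). The arrays of the 2 times did not overlap in either treatment, and neither difference passed the test.

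Ca5a, a mitochondrial form, ran the other way. It averaged 4.21 ± 0.70 in TCDD ventricles at 6 hpa, against 5.47 ± 0.14 at 0 hpa (SD, difference −1.26 ± 0.39, limma adjusted p = 0.14). Its TCDD 6 hpa values were 3.71 on replicate 1, the array that stood apart, and 4.71 on replicate 2. In control ventricles it averaged 5.10 ± 0.57 at 6 hpa, against 6.24 ± 0.07 at 0 hpa (−1.14 ± 0.39, limma adjusted p = 0.319). Aqp8a.1, a water channel gene known from zebrafish endothelium, lay between 9.51 and 10.88 on all arrays. It averaged 9.64 ± 0.19 in TCDD ventricles at 6 hpa, against 10.65 ± 0.33 in control ventricles (SD, difference −1.01 ± 0.23, limma adjusted p = 1), and at 0 hpa the same difference was −0.77 ± 0.23.

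**Figure D3:**
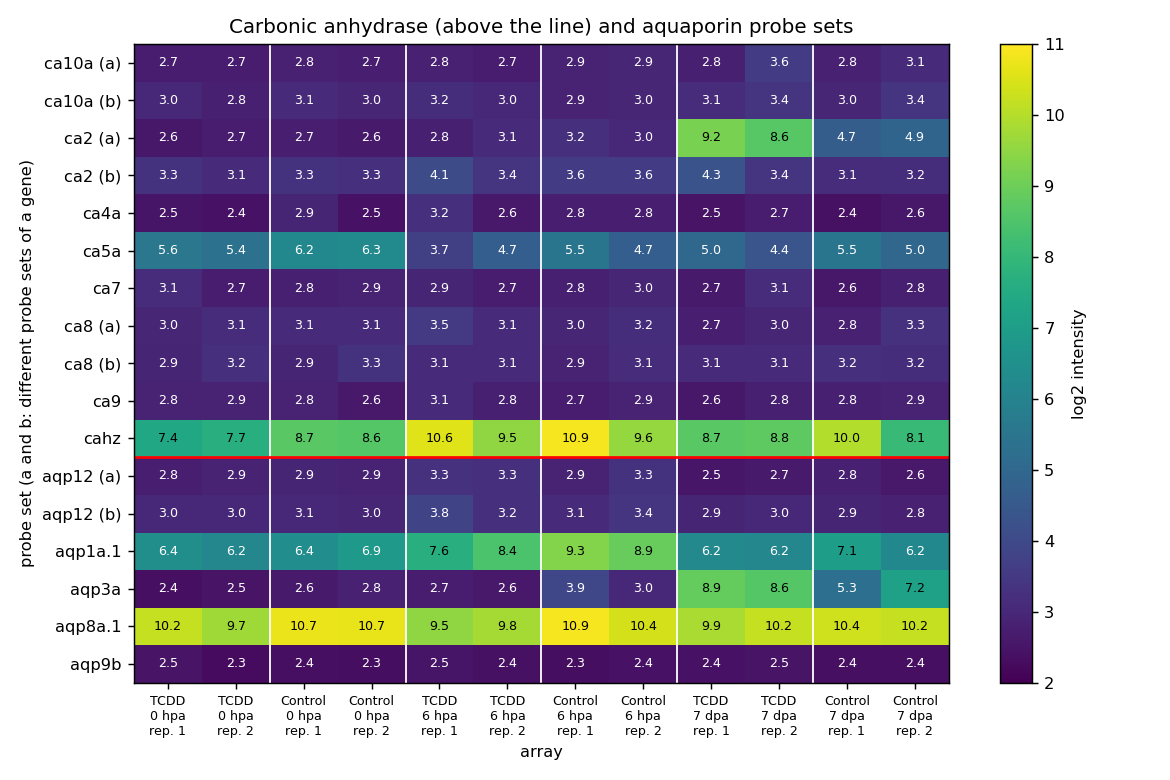
Log2 intensity (colour and printed number) of the carbonic anhydrase probe sets, above the red line, and the aquaporin probe sets, below it, on each array (columns), grouped by treatment and time. Ca2 (a), the main probe set, and aqp3a brighten at 7 dpa, cahz and aqp1a.1 are brightest at 6 hpa, and most other probe sets stay under 4 on all arrays.

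Among transporters that work beside these enzymes and channels, 10 genes for the movement of bicarbonate, protons, lactate and ammonia and 26 for volume and ion balance had probe sets, 47 in all. Together with the other carbonic anhydrases and aquaporins these made 60 probe sets of 46 genes, of which 22 exceeded a log2 intensity of 5 on some array. In TCDD fish at 6 hpa 2 of the 60 rose and 2 fell against 0 hpa, which is 6.67%, against 1.88% of all probe sets. In control fish at 6 hpa 1 rose and none fell, which is 1.67%, against 0.477% of all. None of the 60 was called in the other 7 comparisons, in which between 1 and 12 had an unadjusted p under 0.05 (limma).

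The change in both treatments was that of sgk1, a kinase gene that regulates ion channels and is induced by cell shrinkage and glucocorticoids in mammals. It rose at 6 hpa by 1.44 ± 0.25 log2 units in TCDD fish, to 8.37 ± 0.31 against 6.93 ± 0.14 at 0 hpa (SD, limma adjusted p = 0.0306). In control fish it rose by 1.54 ± 0.25, to 8.33 ± 0.30 against 6.79 ± 0.05 (limma adjusted p = 0.0425). Slc4a1a, the anion exchanger gene of red cells, which swaps bicarbonate for chloride, rose by 3.18 ± 0.59 in TCDD fish (limma adjusted p = 0.0394). In control fish its difference was 2.81 ± 0.59 (limma adjusted p = 0.0945).

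The falls in TCDD fish at 6 hpa were those of wnk1b, a kinase gene that controls ion cotransporters (−1.31 ± 0.25, limma adjusted p = 0.0398), and of atp1b2a, a beta subunit of the sodium-potassium pump, on 1 of its 4 probe sets (−1.19 ± 0.22, limma adjusted p = 0.0383). Each call hung on single arrays. The sgk1 call in controls was lost without either array of any group but TCDD 6 hpa (limma adjusted p = 0.0515 to 0.252), and the sgk1 call in TCDD fish without either 0 hpa array of either treatment (0.0615 to 0.178). The calls of slc4a1a (0.0626 to 0.246) and wnk1b (0.0615 to 0.233) were lost without either 0 hpa array of either treatment, either TCDD 7 dpa array or TCDD 6 hpa replicate 1. That of atp1b2a was lost without the same arrays or either control 7 dpa array (0.0545 to 0.224). Without TCDD 6 hpa replicate 2, which leaves only the array that stood apart in its group, 12 of the 60 probe sets (20%) were called in TCDD fish at 6 hpa, beside 15.6% of all probe sets. Centring each array on its median left no call at 6 hpa in either treatment. Centring moved the median difference of all probe sets in TCDD fish at 6 hpa to −0.09, against 0.06 without it.

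At 7 dpa neither treatment had a called probe set among these transporters. Those with the smallest p in TCDD fish against 0 hpa were atp1b3a, another pump subunit gene (3.39 ± 0.17 at 7 dpa against 2.57 ± 0.14, SD, difference 0.82 ± 0.19, limma adjusted p = 0.068), and oxsr1a, a kinase gene downstream of the WNK kinases (3.17 ± 0.47 against 4.10 ± 0.06, −0.93 ± 0.23, limma adjusted p = 0.0867). This atp1b3a probe set was near background and did not exceed 3.51 on any array. The other atp1b3a probe set stayed between 2.55 and 3.21. Oxsr1a differed alike in control fish (3.38 ± 0.10 against 4.30 ± 0.06, −0.92 ± 0.23, limma adjusted p = 0.098). In control fish atp1b2a, on the probe set called in TCDD fish at 6 hpa, averaged 4.35 ± 0.06 at 7 dpa against 5.34 ± 0.11 at 0 hpa (−0.998 ± 0.22, limma adjusted p = 0.0596).

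Of the bicarbonate, proton and ammonia transporters, those with the smallest p at 7 dpa in TCDD fish were rhbg, an ammonia channel gene near background (0.31 ± 0.15, limma adjusted p = 0.445), and slc4a1a (1.23 ± 0.59, limma adjusted p = 0.464). In control fish they were slc9a7, a sodium-proton exchanger gene of internal membranes (4.33 ± 0.48 at 7 dpa against 3.31 ± 0.14, SD, difference 1.02 ± 0.24, limma adjusted p = 0.0736), and the lactate transporter gene slc16a3b (7.53 ± 0.75 against 8.75 ± 0.43, −1.21 ± 0.42, limma adjusted p = 0.247). Between TCDD and control fish at 7 dpa the 2 smallest p were taken from each list. For volume and ion balance they were those of atp1b3a, on the same probe set as above (0.89 ± 0.19, limma adjusted p = 0.223), and atp1a1b, a pump subunit gene (0.91 ± 0.21, limma adjusted p = 0.303). For bicarbonate, proton and ammonia transport they were those of slc9a7 (−0.83 ± 0.24, limma adjusted p = 0.554) and slc4a1a (−0.50 ± 0.59, limma unadjusted p = 0.425).

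Epidermal marker genes were highest on the TCDD 7 dpa arrays, as ca2 and aqp3a were. This list, like the other marker lists, was made with earlier results of these data known. The summed intensity of 33 of 40 listed epidermal genes was 14699 and 13376 on the TCDD 7 dpa arrays, against 5473 and 8447 on the control 7 dpa arrays. At 6 hpa it was 637 and 1802 in TCDD ventricles and 1990 and 2251 in control ventricles, and at 0 hpa 2392 and 2619 in TCDD ventricles and 3924 and 3545 in control ventricles. Bright genes weigh most in these sums, and at 0 and 6 hpa only 3 to 8 of the 33 exceeded a log2 intensity of 5 on an array. Among the bright ones, krt94, icn and perp did not fall below 6.22, 7.44 and 6.15 on any array, on their brightest probe sets. The only epidermal probe set called at 6 hpa was that of krt94, a keratin gene bright at 0 hpa. It fell in TCDD fish, where 1.88% of all were called (7.15 ± 1.31 against 9.92 ± 0.13, SD, difference −2.77 ± 0.48, limma adjusted p = 0.0325). In TCDD fish at 7 dpa 18 of the 45 epidermal probe sets, for 15 genes, rose against 0 hpa and none fell, where 2.37% of all were called. Between 7 and 22 rose when 1 array was left out, a repeat chosen after the data were seen, with 7 without either TCDD 0 hpa array. Their median difference was 1.91, against −0.02 over all probe sets.

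Between TCDD and control fish at 7 dpa 3 of the 45 epidermal probe sets rose, where 0.116% of all probe sets were called. One was that of anxa1b, an annexin gene (3.42 ± 0.39 log2 units, limma adjusted p = 0.026). The others were both probe sets of icn2, a calcium-binding protein gene (3.98 ± 0.51 and 3.94 ± 0.48, limma adjusted p = 0.0386 and 0.033). In this order their SDs at 7 dpa were 1.08, 1.43 and 1.33 in control and 0.08, 0.29 and 0.16 in TCDD ventricles. The standard errors, shared over all 6 groups, do not show how far the control pools differed. None of the 3 probe sets was called without an array of 0 hpa or a control array of 6 hpa, and not all were called without TCDD 7 dpa replicate 1. In control fish at 7 dpa, where 2% of all probe sets were called against 0 hpa, 1 of the 45 rose. It was that of krt4, a keratin gene (2.42 ± 0.42, limma adjusted p = 0.0255). This call was lost without either control 0 hpa array or control 7 dpa replicate 2, and 6 epidermal probe sets were called without control 7 dpa replicate 1.

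The control arrays at 7 dpa differed. On replicate 2, with the higher aqp3a, 31 of the 33 epidermal genes were above their mean in control 0 hpa, with a median difference of 0.59 log2 units. On replicate 1, where ca2 (4.65) and aqp3a (5.30) were also above 0 hpa, 11 of the 33 were, with a median of −0.13. On the TCDD 7 dpa arrays 29 and 31 of the 33 were. The highest values on any of the 12 arrays differed between epidermal genes. Cldne did not exceed 3.47, tp63 reached 5.81 on 1 probe set and 4.04 on the other, and krt5 reached 10.62. Krt17 reached 8.92, pkp3a 7.97, and epcam 8.37 on 1 probe set and 2.73 on the other. Of the 45 epidermal probe sets 19 did not exceed 5 on any array. Leukocyte markers were also high at 7 dpa but in the other order, with a summed intensity of 21 genes of 6072 and 4882 on the TCDD arrays, against 12125 and 8045 on the control arrays. The part of epidermal RNA in the ca2 and aqp3a differences was not tested. In these pools of whole tissue, more cells of a type, of whatever origin, and more RNA per cell cannot be told apart.

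Ionocyte markers were near background on the 7 dpa arrays, on which none of their probe sets exceeded a log2 intensity of 5. Of 17 listed genes, the 8 with a probe set had a summed intensity of 50.8 and 66.1 on the TCDD 7 dpa arrays, against 52.4 and 61.9 on the control 7 dpa arrays, and of 58.7 to 99.2 on the others. Of their 8 probe sets 7, among them foxi1, the ammonia channel gene rhcgb and slc4a4b, did not exceed 4.43 on any array. Atp1b1b exceeded 5 on 1 array, TCDD 0 hpa replicate 1, where it lay at 5.41. None was called in any of the 9 comparisons, with 0 or 1 at an unadjusted p under 0.05 (limma). The ionocyte genes foxi3a and foxi3b had no probe set named here.

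Erythrocyte marker genes were high on the arrays on which aqp1a.1 was high. The summed intensity of 22 of 35 listed genes, which include cahz and slc4a1a of the lists above, was 26739 and 22267 in TCDD ventricles at 6 hpa, against 8753 and 8222 in TCDD ventricles at 0 hpa. In control ventricles it was 26464 and 17654 at 6 hpa, against 11307 and 10011 at 0 hpa. At 7 dpa it was 9101 and 10970 in TCDD ventricles and 12811 and 8676 in control ventricles. The sums at 6 hpa, in which bright genes weigh most, overlapped between TCDD and control. Single genes of the list differed in this. Klf1 (6.72 and 7.34 against 7.93 and 7.76) and gata1a (4.73 and 5.13 against 7.39 and 5.66) were lower on both TCDD arrays, as aqp1a.1 was. Epb41b (8.03 and 8.03 against 8.91 and 7.66) overlapped, and nt5c2l1 averaged higher in TCDD ventricles (11.99 against 10.98). Already at 0 hpa klf1 (3.91 and 4.20 against 4.52 and 5.65) and gata1a (3.63 and 3.21 against 3.84 and 3.87) were lower on both TCDD arrays. So was epb41b (4.91 and 4.70 against 5.58 and 5.60), while nt5c2l1 averaged higher (9.46 against 8.14). Klf1, gata1a and epb41b were also picked, further below, for running most like aqp1a.1 on these same arrays.

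Of the 22 erythrocyte probe sets 9 rose in TCDD fish at 6 hpa and 1 in control fish, and none fell. The shares of all probe sets called there, in either direction, were 1.88% and 0.477%. Of the 22, 4 did not exceed 3.69 on any array. The median difference of the 22 was 1.59 in TCDD fish and 1.45 in control fish, against 0.06 and 0.02 over all probe sets. Among the rises in TCDD fish were hbba2, an adult haemoglobin gene (2.47 ± 0.49, limma adjusted p = 0.0434), and tal1, a transcription factor gene of blood formation (2.94 ± 0.50, limma adjusted p = 0.0306). The count of 9 was 2 without TCDD 6 hpa replicate 1 or either TCDD 7 dpa array, 1 without either control 0 hpa array and 0 without either TCDD 0 hpa array. The call in control fish, nt5c2l1, was lost without either 0 hpa array of either treatment, control 6 hpa replicate 1 or either TCDD 7 dpa array. The count in controls was 4 without either control 7 dpa array and 6 without either TCDD 6 hpa array.

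Aqp1a.1 is also known from endothelium. Endothelial and endocardial markers had a lower summed intensity at 6 hpa than at 0 hpa. Of their 14 probe sets 7 did not exceed a log2 intensity of 5 on any array. The summed intensity of 13 of 34 listed genes was 221 and 357 in TCDD ventricles at 6 hpa, against 568 and 626 in TCDD ventricles at 0 hpa. In control ventricles it was 328 and 373 at 6 hpa, against 655 and 740 at 0 hpa. Of their 14 probe sets none was called in TCDD fish at 6 hpa and 1 fell in control fish, where 1.88% and 0.477% of all were called. At an unadjusted p under 0.05 there were 6 and 5 (limma), beside 2659 and 1587 of all 15502 probe sets. The parts of blood cell RNA and of endothelial RNA in the aqp1a.1 differences were not tested.

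Cardiomyocyte markers were lower after amputation in both treatments. Their summed intensity was 27623 and 35977 in TCDD ventricles at 6 hpa and 38291 and 29137 at 7 dpa, against 48155 and 48030 at 0 hpa. In control ventricles it was 41968 and 40922 at 6 hpa and 33170 and 30598 at 7 dpa, against 51826 and 49325 at 0 hpa. Against 0 hpa ckmt2a, a mitochondrial creatine kinase gene, casq2, a calcium store protein gene, and ttn.2, a titin gene, fell at 7 dpa on 3 of 23 probe sets in TCDD fish and 4 in control fish. The shares of all probe sets called there, in either direction, were 2.37% and 2%. At 6 hpa in TCDD fish, where 1.88% of all were called, 1 of the 23 fell. It was that of the transcription factor gene tbx5a (−1.71 ± 0.32, limma adjusted p = 0.0394). The median difference of the 23 was −1.002 at 6 hpa and −0.46 at 7 dpa in TCDD fish, and −0.45 and −0.56 in control fish. With 1 array left out, 1 to 4 fell in TCDD fish at 7 dpa and 0 to 7 in control fish, the 0 without either control 0 hpa array. The tbx5a call at 6 hpa was lost when any array but TCDD 6 hpa replicate 2 was left out. Without that replicate, which leaves only the array that stood apart, calls rose over all probe sets and are not counted here. The part of a lower share of cardiomyocyte RNA in the ca2, aqp3a and aqp1a.1 differences was not tested.

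**Figure D4:**
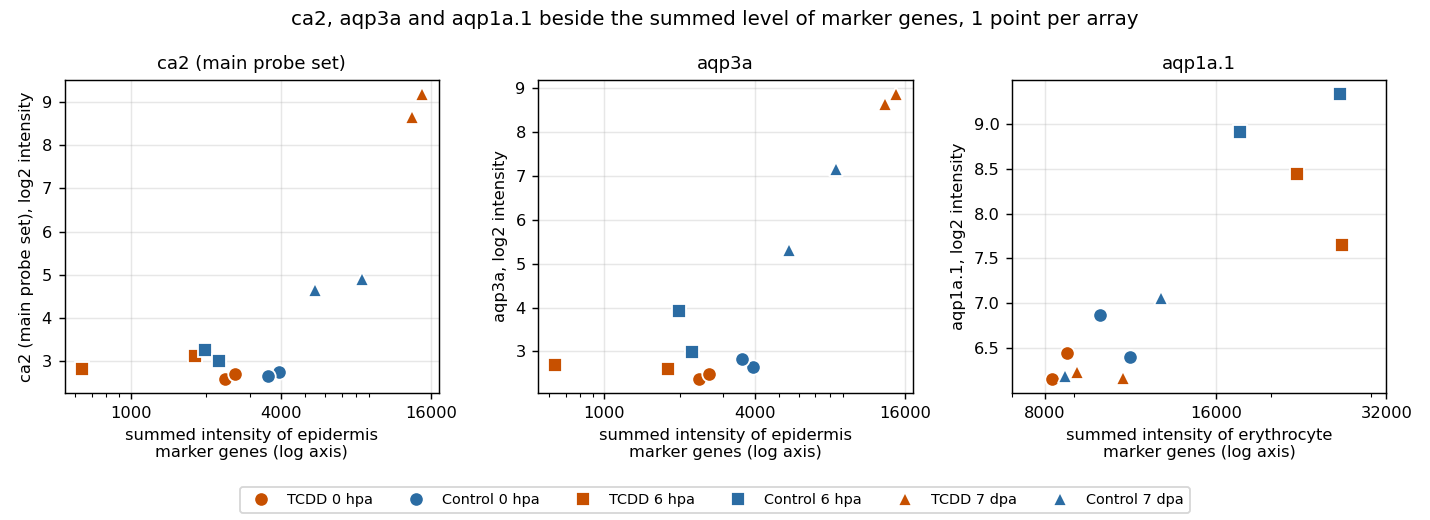
Log2 intensity of ca2 and aqp3a against the summed intensity of 33 epidermal marker genes, and of aqp1a.1 against that of 22 erythrocyte marker genes (horizontal log axes), with 1 point per array, TCDD in orange, control in blue, and circles, squares and triangles for 0 hpa, 6 hpa and 7 dpa. The 2 TCDD 7 dpa arrays lie at the upper right for ca2 and aqp3a, and the 4 arrays at 6 hpa at the upper right for aqp1a.1, with TCDD below control.

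The genes whose levels ran most like each of the 3 were taken by Pearson's r over 12 arrays. Candidates were 1863 probe sets with 1 gene symbol and a range of at least 2 log2 units. Symbols that are clone names, with a colon, or LOC numbers were left out. For ca2 the nearest were crabp2a, a carrier of retinoic acid (r = 0.986), mid1ip1a (0.972), anxa1b (0.965), cdh1, the adhesion protein E-cadherin of epithelia (0.964), and cygb1, a cytoglobin (0.963). These values leaned on the TCDD 7 dpa arrays, and without those 2 arrays r ran from 0.645 for anxa1b to 0.904 for crabp2a. Over all 12 arrays Spearman's rho ran from 0.406 for anxa1b to 0.776 for cdh1. Crabp2a lay at 6.28 and 5.45 on the TCDD 7 dpa arrays, against 3.38 and 3.79 on the control 7 dpa arrays, and did not exceed 2.95 on any other.

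For aqp3a the nearest were apoeb, an apolipoprotein E gene that is also in the leukocyte list (r = 0.985), cdh1 (0.981), gjc4b, a gap junction protein (0.973), cfl1l, a cofilin relative (0.967), and pycard, an inflammasome adaptor (0.964). Without the TCDD 7 dpa arrays r stayed between 0.897 and 0.977. Apoeb lay at 9.79 and 9.76 on the TCDD 7 dpa arrays, against 6.58 and 9.41 on the control 7 dpa arrays, and so was higher in control replicate 2, as aqp3a was. Cdh1, the gene common to both lists, lay at 7.80 and 6.76 on the TCDD 7 dpa arrays, against 4.20 and 5.46 on the control 7 dpa arrays. Like aqp3a it was also higher on control 6 hpa replicate 1 (4.17) than on replicate 2 (2.68).

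For aqp1a.1 the nearest were klf1, a transcription factor of red cell formation (r = 0.968), misp (0.968), slc20a1a, a phosphate transporter (0.958), gata1a, a transcription factor of red cell formation (0.955), and epb41b, a membrane skeleton protein of red cells (0.951). Without the 2 control 6 hpa arrays r stayed between 0.923 and 0.962. Of these, klf1, gata1a and epb41b are in the list of 22 erythrocyte genes. Gata1a lay at 4.73 and 5.13 on the TCDD 6 hpa arrays, against 7.39 and 5.66 on the control 6 hpa arrays. These matches are over 12 arrays in 6 groups, and the genes were picked for them. Levels that these genes share with ca2, aqp3a or aqp1a.1 are therefore a description.

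The authors' deposited tables set 1 group against a class called the rest, whose arrays they do not name. In the authors' deposited table for TCDD 7 dpa, the main ca2 probe set had a class mean of 445 intensity units, against 13.0 in the rest, a fold of 34.1. In the same deposited table of the authors aqp3a had 387 units against 27.0 in the rest, and aqp1a.1 67.1 units against 225. In the authors' deposited table for control 7 dpa, aqp3a had 83.6 units against 102.9 in the rest and the main ca2 probe set 27.6 against 117. A rest that high must take in TCDD 7 dpa, the only class of the authors with a ca2 mean above 27.6. In the authors' deposited table for control 6 hpa, aqp1a.1 had 450 units against 150 in the rest, a fold of 2.99. In the authors' deposited table for TCDD 6 hpa, it had 212 units against 269. That rest equals the mean of the authors' class means for control 0 hpa (88.1) and control 6 hpa (450), and so matches control arrays only. The rest of 150 in the control 6 hpa table likewise equals the mean of control 0 hpa and TCDD 6 hpa.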

How the data were processed

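Per the submitters' processing notes, RMA gave the deposited intensity values of 12 Affymetrix zebrafish arrays. Its software and version, and which arrays were normalized together, are not stated in the sources at hand. RMA removes background, forces the arrays towards one distribution and combines probes into a value per probe set, and it draws dim signals together. The deposited intensities run on a linear scale, and all work here was on their log2. The authors' deposited tables hold class means and a fold, the larger class mean over the smaller; per the file headers they came from the Comparative Marker Selection module of GenePattern. The headers of both 6 hpa tables give the class a 7, and the table name decided its group. The class means correlated with that group's at r = 0.9943 to 0.9976 and differed from the main table's means by a median of 5.92% to 9.80%, for a reason not known here.

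Leaving 115 control probe sets out of 15617 gave 15502 for the test, dim ones included. Gene symbols came from the platform annotation and a RefSeq gene table: 10795 probe sets had 1 symbol, 135 several and 4572 none. Only those with 1 symbol were named, and the RefSeq table held the genes of 10711. A model of 6 group means was fitted to 12 arrays with limma 3.58.1 in R 4.3.3 (6 residual degrees of freedom, 2.87 added by eBayes), with Benjamini-Hochberg adjustment within each of 9 comparisons. Errors after ± are limma's standard errors beside differences and standard deviations beside levels. The median standard error of a difference between 2 groups was 0.243 log2 units, and the number of arrays limits the precision. The fit was tested on simulated data.

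The genes and lists were chosen with earlier results of these data known. The probe set with the highest mean was the main one of a gene. The rule for naming in each pathway list took the genes called or, with none called, the 2 with the smallest p. Of the uncalled genes it gave, the text leaves out most of those for TCDD against control at 0 and 6 hpa and for the interactions, and dim carbonic anhydrases and aquaporins are given by their range. Named for likeness were the 5 probe sets of other genes with the highest r among those with a range of at least 2 log2 units. Genes known only by a clone name or LOC number were not candidates. Cyp1a was the treatment check. Marker genes given as examples were chosen after their values were seen. Other normalizations, filters, thresholds, moderation, a pseudocount of 16, the mean of a gene's probe sets, a replicate block and the omission of each array were tried. The genes' sequences and positions were not analysed here.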

Additional observations from a re-analysis of the deposited data

Results flagged for a closer look

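For 2 dim probe sets the 7 dpa arrays lay above those of 0 hpa in TCDD fish and below them in control fish. Either separation alone was common, with 20.9% of all probe sets higher in TCDD fish and 22.4% lower in control fish. The share of probe sets that did both was not computed. The second ca2 probe set was higher at 7 dpa than at 0 hpa on both TCDD arrays (3.84 ± 0.68 against 3.22 ± 0.15, SD, n = 2) and lower on both control arrays (3.16 ± 0.04 against 3.29 ± 0.05). The change was 0.61 ± 0.32 log2 units in TCDD fish, with 7 dpa arrays at 4.32 and 3.35, and −0.13 ± 0.32 in control fish, which is within its error. The difference between the treatments was 0.74 ± 0.46 log2 units and was not tested, since ca2 was chosen on these arrays.

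Atp1a1b, an alpha subunit gene of the sodium-potassium pump, behaved alike near background. It was higher at 7 dpa than at 0 hpa on both TCDD arrays (3.95 ± 0.04 against 3.19 ± 0.03) and lower on both control arrays (3.05 ± 0.29 against 3.36 ± 0.04). The interaction was 1.08 log2 units with an unadjusted p of 0.00637 and an adjusted p of 1 (limma), and so did not pass the test.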

How the results depend on the processing

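Of 604 alternative values 461 were labelled the same, 94 moved further, 49 lost a call and none was labelled reversed. A difference of ca2, aqp3a or aqp1a.1 was the same within the residual spread of its probe set. A count of calls was the same within 1.5-fold, or when nothing was called either way. Sign changes of small differences were not labelled reversed. On the log2(value + 16) scale the ca2 differences were 3.52 for TCDD minus control at 7 dpa, 0.10 and 4.49 for 6 hpa and 7 dpa minus 0 hpa in TCDD fish, and 0.14 and 0.95 in control fish. The aqp3a differences of 7 dpa from 0 hpa were then 4.38 in TCDD fish and 2.05 in control fish. With the mean of both ca2 probe sets the 7 dpa values were 2.41 for TCDD minus control, 3.45 over time in TCDD fish and 0.98 in control fish. With quantile normalization aqp1a.1 at 6 hpa differed by −0.66 between TCDD and control and by 2.28 from 0 hpa in TCDD fish.

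Leaving out 1 array gave ca2 differences at 7 dpa of 3.87 to 4.41 (TCDD minus control) and 6.01 to 6.55 (TCDD fish over time). Those of aqp3a at 7 dpa were 1.59 to 3.44 (TCDD minus control) and 2.57 to 4.42 (control fish over time). For aqp1a.1 they were −1.47 to −0.68 (TCDD minus control) and 1.34 to 2.13 (TCDD fish over time) at 6 hpa, and −0.85 to 0.014 and −0.44 to 0.42 (TCDD minus control, and control fish over time) at 7 dpa. The sign of a ca2, aqp3a or aqp1a.1 difference changed in 13 of 270 alternatives.

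Calls among the 60 other probe sets moved too. For control fish at 6 hpa, 1 was called, against 2 with quantile normalization or without the dimmest 25% of probe sets, 0 with centring or with eBayes trend and robust settings, 4 at an adjusted p below 0.1 and 0 to 3 with 1 array left out. For TCDD fish at 6 hpa, 4 were called, against 0 with centring, 1 with trend and robust settings and 0 to 12 with 1 array left out, the 12 without TCDD 6 hpa replicate 2. At 7 dpa none was called, against 2 with quantile normalization, 1 with trend and robust settings, 2 at an adjusted p below 0.1 and 0 to 2 with 1 array left out in TCDD fish. In control fish at 7 dpa these were 1 with quantile normalization, 3 at an adjusted p below 0.1 and 0 to 3 with 1 array left out. Between TCDD and control, 1 was called at 7 dpa with trend and robust settings and 0 to 2 at 6 hpa with 1 array left out. The cause of these shifts was not tested.

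With the replicate number as a replicate block, 3 were called in TCDD fish (sgk1, slc4a1a and wnk1b) and 1 in control fish (slc4a1a) at 6 hpa. The limma adjusted p was then 0.0558 for sgk1 in control fish and 0.0507 for atp1b2a in TCDD fish. Ca2 at 7 dpa still differed by 4.14. Same-numbered arrays deviated together in 8 of 15 pairs of groups (r above 0.1, range −0.38 to 0.56), so the numbers are not shown to pair the samples.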
